A study of Homo sapiens with 40 samples.

Results

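Decitabine (DAC) is a cytidine analogue that is built into DNA during replication and traps DNA methyltransferases, so that copied DNA loses methylation. BMN673 (talazoparib, written BMN in the sample labels) inhibits PARP1 and PARP2, the enzymes that mark DNA breaks with chains of ADP-ribose, and holds them on DNA. Cells answer damaged DNA partly through p53, which switches on genes of cell-cycle arrest and death, and they answer foreign or misplaced nucleic acid through sensors that lead to interferons and NF-kB. Interferons act through a complex of transcription factors on the ISRE, a promoter element shared by many antiviral genes, while NF-kB acts on its own element in cytokine and chemokine genes.

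The cells were 786-0, an established line of human clear cell renal cell carcinoma, in the form labelled SETD2 WT. The comparison described here asks what 10 nM BMN added to 100 nM DAC had done to their transcripts by day 5. It sets the 2 libraries labelled SETD2 WT, day 5, DAC and BMN together (the combination) against the 2 labelled SETD2 WT, day 5, DAC alone, 4 libraries of 40 in all. Both groups carried the same DAC dose, the same SETD2 genotype and the same time in culture. The series as a whole held 20 groups of 2 libraries: the WT line and a SETD2 knockout (KO) line, labelled control at day 0 or given DAC, BMN or both and taken at day 5, 16 or 26. 3 comparisons outside these 4 libraries are used below for contrast: the same drug pair in KO at day 5, the same pair in WT at day 16, and WT cells given 10 nM BMN without DAC at day 5 against WT control cells of day 0. Nothing in the labels tells if a group's 2 replicates came from different cultures, if a line is 1 clone, or when drug was renewed, so p-values measure the spread between these libraries, which may be technical.

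Promoter sequences of interferon-stimulated genes, many but not all of which hold the ISRE core, are shown first. They were read from the RefSeq promoter table of build GRCh38.p14, which gives 250 bases before to 50 bases after each gene's start, and each line prints the matches in capitals with 30 bases on either side, 5′ to 3′ on the strand of the gene. The ISRE core was searched as GAAA, any 2 bases and GAAA again, on both strands, so a match on the other strand reads TTTC, any 2 bases and TTTC. Matches may overlap one another and those of other motifs. It was found in 28 of the 44 promoters matched among 54 interferon-stimulated genes (63.6%) and in 3.65% of the 27305 promoters in the table. A match is a description of these letters and not evidence of binding. Only genes with a match are printed, here and below. RSAD2, CMPK2, OAS1 and STAT2 had a promoter in the table but no ISRE match, and OAS2 and MX2 had no promoter in it. The 6 genes shown span an antiviral effector with tandem matches (IFIT1) and a ubiquitin-like modifier with overlapping matches (ISG15). They also include IFI44L and IFI6, whose matches lie in repeated stretches.
IFI27, chr14:94110598-94110680, plus strand: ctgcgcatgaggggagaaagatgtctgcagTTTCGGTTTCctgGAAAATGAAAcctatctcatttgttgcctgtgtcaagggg
IFI44L, chr1:78620254-78620414, plus strand: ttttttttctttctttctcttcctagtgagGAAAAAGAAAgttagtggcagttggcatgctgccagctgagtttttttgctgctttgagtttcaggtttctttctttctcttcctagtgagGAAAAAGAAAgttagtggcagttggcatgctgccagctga
IFIT1, chr10:89392477-89392559, plus strand: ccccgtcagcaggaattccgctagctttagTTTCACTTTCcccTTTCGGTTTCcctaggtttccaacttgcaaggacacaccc
ISG15, chr1:1013354-1013429, plus strand: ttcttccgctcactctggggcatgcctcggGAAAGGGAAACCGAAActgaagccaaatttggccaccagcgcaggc
IFI6, chr1:27672246-27672378, minus strand: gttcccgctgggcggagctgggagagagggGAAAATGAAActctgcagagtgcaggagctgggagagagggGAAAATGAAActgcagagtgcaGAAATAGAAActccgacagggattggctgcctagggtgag
EPSTI1, chr13:42992252-42992321, minus strand: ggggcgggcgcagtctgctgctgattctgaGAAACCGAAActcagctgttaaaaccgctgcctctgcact

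The NF-kB core was searched in the same way as GGGA, any 4 bases and CC. It was found in 20 of the 29 promoters matched among 37 NF-kB targets and inflammatory cytokines (69%). It was in 25.1% of all promoters, so these letters alone are common. They were not particular to this list. The core was also in 9 of 18 cholesterol synthesis promoters (50%), 8 of 16 of decitabine metabolism (50%) and 16 of 33 of p53 targets (48.5%). The lowest share was 6.25%, in histone genes. A p53 motif was searched as well and is not printed. It was in 3 of 33 p53 target promoters (9.09%), against 6.54% of all promoters. The lines below give the NF-kB core for an interleukin, a pair of chemokines, a feedback inhibitor and an adhesion gene. All of these are described further on.
IL6, chr7:22727097-22727167, plus strand: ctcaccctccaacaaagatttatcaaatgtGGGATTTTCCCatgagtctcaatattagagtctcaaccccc
CXCL8, chr4:73740422-73740491, plus strand: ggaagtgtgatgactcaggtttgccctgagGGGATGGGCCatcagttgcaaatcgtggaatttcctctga
CXCL1, chr4:73869284-73869354, plus strand: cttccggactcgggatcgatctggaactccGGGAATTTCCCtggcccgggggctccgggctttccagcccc
TNFAIP3, chr6:137867162-137867231, plus strand: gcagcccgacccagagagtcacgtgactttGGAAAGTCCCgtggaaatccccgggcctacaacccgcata
VCAM1, chr1:100719650-100719719, plus strand: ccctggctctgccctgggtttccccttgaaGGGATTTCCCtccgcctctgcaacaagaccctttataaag

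The 4 libraries held 18401196 to 20487923 counts, within the 17833960 to 22631101 of all 40, and 22527 genes were tested. Levels below are CPM, the count of a gene relative to the TMM-scaled size of its library, and are given for DAC replicates 1 and 2 and then combination replicates 1 and 2. Changes are log2 fold changes with their SE, and a gene is said to rise, fall or pass where its adjusted p is below 0.05. All 9 renal carcinoma markers were at 1 CPM or more in the 4 libraries, while of 18 markers of blood, endothelial and other cells 5 had no count and 16 were under 1 CPM. Those 18 summed to 3.62 and 3.85 CPM with DAC and to 4.95 and 5.19 CPM with the combination, and their part in the results was not tested. The alignment names of 3 of the 4 libraries carry a suffix that the sources do not explain. DAC replicate 1 lacks it, and without that library 1968 genes passed; the part of the suffix was not tested. The 2 WT control libraries stood further apart than the pairs of the other groups used here (chi-square per degree of freedom 19.6 against 1.65 to 5.71), so tests that use them are also given without each.

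Adding BMN to DAC changed 2769 of 22527 genes (12.3%), of which 1525 were higher (6.77%) and 1244 lower (5.52%). At least 2-fold, 443 were higher and 124 lower, so the rises were the larger changes. The rises included interferon-stimulated genes, NF-kB targets, antigen presentation genes, ERK feedback genes and p53 targets. The falls were mostly under 2-fold and took in histone genes, sterol synthesis genes and part of the replication genes. Over all genes the median log2 change was -0.01, and the 2 groups' libraries did not overlap in 53.1% of the genes tested, so that lack of overlap alone sets no gene apart. With 1 library left out the count ran from 1574 (without DAC replicate 2) to 1968 (without DAC replicate 1), with 1819 without combination replicate 1 and 1687 without combination replicate 2. In bulk RNA, a change in the share of cells of one state and a change per cell cannot be told apart.

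**Figure D1:**
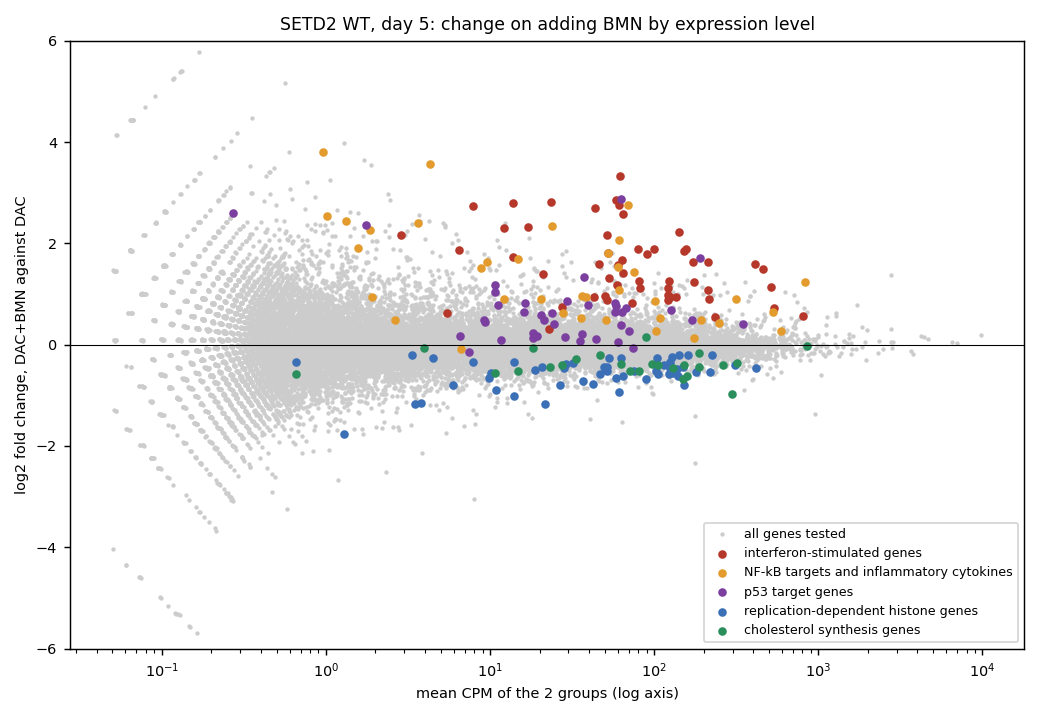
Log2 fold change of the combination against DAC in WT at day 5 (vertical axis) by the mean CPM of the 2 groups (horizontal log axis), 1 point a gene, with 5 gene lists in colour; genes below 0.05 CPM or beyond 6 in log2 are not drawn. The interferon-stimulated genes lie above 0 at every level, up to 3.33 for OAS2, and the histone and cholesterol synthesis genes lie at or below 0 over most of the range.

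Interferon-stimulated genes rose together. Of 54 tested, 52 rose and the other 2, IFITM2 and IRF9, did not pass, and the list's median log2 was 1.53. With any 1 of the 4 libraries left out, 52 or 53 rose. OAS2, which makes the 2-5A messenger that activates RNase L (ENSG00000111335, chromosome 12, 112978395 to 113011723), stood at 11.6 and 10.8 CPM with DAC and at 111 and 113 CPM with the combination. That was a 10-fold rise (log2 3.33 ± 0.09, adjusted p = 5.4e-23), and the 2 groups were far apart. Control cells of day 0 had 0.0504 and 0.155 CPM and cells given BMN alone 0.527 and 0.318 CPM, where 3 counts make 0.139 to 0.161 CPM in the libraries compared.

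Direct antiviral effectors were among the largest rises. MX1, a GTPase that traps viral components (ENSG00000157601, chromosome 21, 41420020 to 41470071), went from 16.2 and 15.1 to 114 and 98.9 CPM (log2 2.76 ± 0.10, adjusted p = 1.2e-20). Its neighbour MX2, which acts on retroviruses, went from 12.5 and 11.1 to 75.9 and 75.7 CPM (log2 2.69 ± 0.08). RSAD2 (viperin), which makes a chain-terminating nucleotide, was at 5.28 and 6.41 against 43.1 and 39.5 CPM. In each of the 3 genes the lowest combination library was several times above the highest DAC library. CMPK2, a mitochondrial nucleotide kinase encoded beside RSAD2, rose 6.94-fold, from 3.41 and 3.53 to 24.9 and 23.4 CPM. IFI44L, an interferon-induced gene on chromosome 1 (78619902 to 78646145), rose 7.22-fold, from 11.9 and 16.6 to 101 and 105 CPM.

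Genes that were already well expressed with DAC rose as well. IFI27, an interferon-induced mitochondrial protein (chromosome 14, 94104836 to 94116698), went from 66.6 and 66.5 to 235 and 254 CPM (log2 1.88 ± 0.07). IFIT1, which binds RNA that lacks the host cap mark, went from 43.3 and 41.7 to 164 and 149 CPM, and IFIT3, its partner, from 82.2 and 85.5 to 275 and 248 CPM. ISG15, the ubiquitin-like modifier, went from 66.2 and 65.9 to 240 and 233 CPM (log2 1.84 ± 0.13), and USP18, which removes ISG15 from proteins, rose 3.32-fold. These groups did not overlap in any of the 4 genes. The smallest rises that passed were those of ADAR, the RNA editing enzyme (1.47-fold), and EIF2AK2, the kinase PKR that halts translation on double-stranded RNA (1.46-fold). IFITM1, which blocks viral entry and shares sequence with its neighbours so that its level is uncertain, was at 3.47 and 2.14 against 9.03 and 11.2 CPM.

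Of the transcription factors of the pathway, STAT2 rose 1.84-fold, from 89.3 and 81.9 to 157 and 158 CPM, and IRF7, the factor that amplifies interferon genes, rose 2.62-fold. IRF9, the DNA-binding partner of STAT2, had a log2 of 0.62 (adjusted p = 0.1). LGALS9, which encodes galectin-9, was at 2.22 and 1.90 against 13 and 14.3 CPM. Interferon-induced members of the PARP family rose too, and these are not the enzymes that BMN is known to target. PARP9, PARP14, PARP12 and PARP10 rose 2.39-, 2.21-, 1.92- and 2.17-fold, and DTX3L, the ubiquitin ligase that pairs with PARP9, rose 1.88-fold.

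The ligands themselves were at the edge of detection, and were looked at after the values of their targets were seen. IFNB1, the type I interferon that most cell types make first, had no count in the DAC libraries, in the control libraries or in the BMN libraries, and had 6 and 2 counts in the combination libraries. IFNL1, a type III interferon, had 1 and 0 counts against 1 and 3. Neither gene met the minimum count for a test, and a difference in these ligand transcripts was not detectable at this depth. The receptor genes IFNAR1 (log2 -0.21, adjusted p = 0.36), IFNAR2 (log2 -0.11, adjusted p = 0.48) and IFNLR1 (log2 0.23, adjusted p = 0.41) and the receptor kinases JAK1 (log2 0.13, adjusted p = 0.10) and TYK2 (log2 0.12, adjusted p = 0.54) did not pass.

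Among genes of nucleic acid sensing 12 of 18 rose, with a median log2 of 0.63, and the other 6 did not pass. Sensors of double-stranded RNA rose. IFIH1 (MDA5), which binds long duplexes, went from 30.2 and 27.8 to 91.4 and 79.1 CPM (2.94-fold). RIGI, which binds short duplexes with a 5′ triphosphate, went from 4.76 and 3.57 to 15.3 and 13.1 CPM (3.43-fold). DHX58, a regulator of both, rose 2.44-fold, and TLR3, the endosomal sensor, rose 1.46-fold. ZNFX1, an RNA helicase that acts early against RNA viruses, went from 267 and 261 to 554 and 536 CPM. The adaptor MAVS, through which both RNA helicases signal, was at a log2 of 0.01 (adjusted p = 0.96), and IRF3, the factor activated below it, at 0.18 (adjusted p = 0.29).

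On the DNA side, STING1, the adaptor of cytosolic DNA sensing (chromosome 5, 139475533 to 139482935), went from 47.3 and 40.3 to 72.0 and 71.1 CPM (log2 0.71 ± 0.10, adjusted p = 1.4e-06). CGAS, the enzyme that makes the STING1 ligand, was at 33.9 and 38.0 against 45.6 and 42.3 CPM (log2 0.29 ± 0.09, adjusted p = 0.039). The CGAS call was lost when combination replicate 1, combination replicate 2 or DAC replicate 1 was left out, with log2 of 0.23, 0.34 and 0.21. IFI16, a nuclear DNA sensor, rose 1.80-fold. ZBP1, a sensor of left-handed nucleic acid that can start necroptosis, was at 0.310 and 0.186 against 3.6 and 2.67 CPM.

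SAMHD1, a hydrolase of deoxynucleotide triphosphates that also cleaves the active form of decitabine, is both an interferon-induced restriction factor and a gene of DAC metabolism. It went from 90.8 and 94.7 to 233 and 219 CPM (chromosome 20, 36890229 to 36951893; log2 1.28 ± 0.07, adjusted p = 3.5e-16), with no overlap. Of 20 genes of decitabine uptake and metabolism 6 were higher and 1 lower, and leaving out combination replicate 2 or DAC replicate 2 took the 6 to 2 and 3. Over all genes tested 6.77% rose and 5.52% fell, so the 1 lower was near that share. CDA, which deaminates decitabine, was at 23.9 and 19.9 against 28.2 and 32.5 CPM (log2 0.47 ± 0.12). It lost its call without combination replicate 2 (log2 0.37) or DAC replicate 2 (log2 0.34). DCK, which phosphorylates decitabine, was at a log2 of -0.10 (adjusted p = 0.82) and the efflux pump gene ABCB1 at -0.22 (adjusted p = 0.10).

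Antigen presentation by MHC class I rose with smaller folds: 18 of 21 genes, with a median log2 of 0.54. HLA-F, a class I gene that responds to NF-kB and interferon, went from 29.0 and 25.4 to 64.9 and 62.9 CPM (log2 1.23 ± 0.11). TAP1, a part of the peptide transporter, went from 139 and 126 to 264 and 267 CPM, a 2-fold rise. NLRC5, the transactivator of class I genes, rose 1.95-fold, PSMB9, a subunit of the immunoproteasome, rose 1.96-fold, and B2M, the shared light chain, rose 1.38-fold, from 609 and 616 to 841 and 855 CPM. HLA-B and HLA-C rose 1.80- and 1.47-fold, but these genes resemble each other closely and vary between genomes, so their separate levels are uncertain. CALR and PDIA3, general chaperones of the endoplasmic reticulum, did not pass (log2 0.13 and 0.00).

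**Figure D2:**
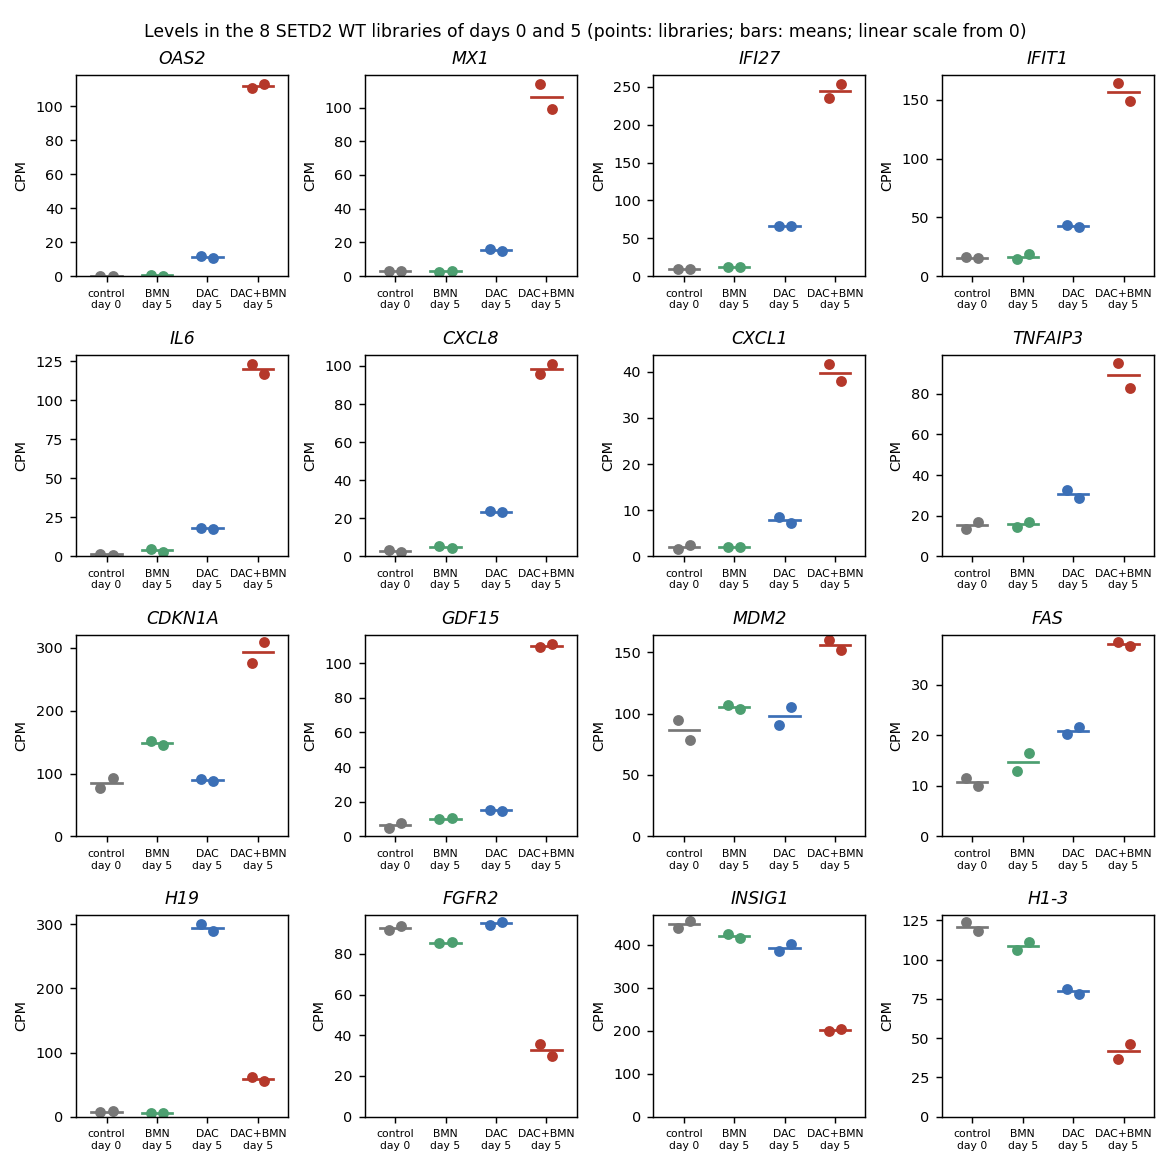
CPM of 16 genes (vertical axes, linear from 0) in the 8 SETD2 WT libraries of day 0 and day 5, with 1 point a library and a bar at each group mean. The first 3 rows show genes that are highest in the 2 combination libraries, such as OAS2 at 111 and 113 CPM, and the last row shows genes that are lowest there, except H19, which stays above the control level.

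NF-kB targets and inflammatory cytokines rose as broadly. Of 37 tested 33 rose, with a median log2 of 0.97, and 30 to 32 rose with 1 library left out. CSF2, which encodes the growth factor GM-CSF (ENSG00000164400, chromosome 5, 132073789 to 132076170), was the largest rise among genes that met the floors of the naming rule: 0.828 and 0.511 CPM with DAC against 7.48 and 8.42 CPM (log2 3.57 ± 0.26, adjusted p = 4.2e-12). IL6, the cytokine that drives the acute phase (chromosome 7, 22725884 to 22732002), went from 18.4 and 17.2 to 123 and 117 CPM (log2 2.76 ± 0.11). The interleukin-1 genes IL1A and IL1B were at 1.19 and 1.11 against 6.08 and 6.16 CPM and at 0.259 and 0.325 against 1.67 and 1.80 CPM. All combination libraries were above all DAC libraries for these 4 cytokines, and all but IL6 were below 10 CPM in each of the 4 libraries.

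Neutrophil-attracting chemokines rose with them. CXCL8 (interleukin-8) went from 23.7 and 23.3 to 95.7 and 101 CPM (log2 2.06 ± 0.11, adjusted p = 1.6e-16), and CXCL1 went from 8.53 and 7.15 to 41.7 and 37.9 CPM (log2 2.35 ± 0.12). CXCL2, CXCL3 and CXCL5 rose 3.10-, 3.75- and 1.96-fold. Of the chemokines that attract T cells and monocytes, CCL5 went from 24.8 and 21.4 to 85.1 and 76.8 CPM, CCL2 rose 1.93-fold, and CXCL10 was at 0.621 and 0.650 against 3.23 and 2.93 CPM. TNF was at 4.40 and 4.74 against 12.9 and 13.4 CPM. The feedback gene TNFAIP3 (A20), which ends NF-kB signalling, rose 2.90-fold, and TRAF1, an adaptor of TNF receptors, rose 2.11-fold. VCAM1, an adhesion molecule for leukocytes, went from 39.7 and 41.9 to 110 and 109 CPM, and complement C3 from 514 and 472 to 1210 and 1110 CPM. LIF, an IL6-family cytokine, did not pass (log2 0.14, adjusted p = 0.28).

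Immediate early and ERK feedback genes, which are read as transcripts of growth factor signalling, rose in 25 of 32 cases with a median log2 of 0.90. The EGF receptor ligand genes EREG (22.8 and 26.1 against 84.7 and 87.1 CPM, log2 1.81 ± 0.09) and AREG (3.52 and 2.88 against 12.1 and 10.4 CPM) rose most among the ligands, and TGFA rose 1.99-fold and HBEGF 1.65-fold. Feedback inhibitors of the pathway rose as well, with the phosphatase DUSP5 from 10.6 and 11.2 to 36.2 and 32.4 CPM, DUSP6 2.37-fold, and SPRY4 from 0.517 and 0.696 to 2.69 and 3.44 CPM. The transcription factor KLF4 rose 2.87-fold and ETV5, an ERK-driven factor, rose 2.41-fold. FOS (log2 1.55, adjusted p = 0.051) and EGR1 (log2 0.39, adjusted p = 0.41), which respond within minutes, did not pass.

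Of 40 p53 target genes 26 rose and the other 14 did not pass, with a median log2 of 0.54. GDF15, a stress cytokine that lowers appetite (ENSG00000130513, chromosome 19, 18374731 to 18389176), went from 15.4 and 14.7 to 109 and 111 CPM, a 7.32-fold rise (log2 2.87 ± 0.14, adjusted p = 5.6e-17). CDKN1A (p21), the inhibitor of cyclin-dependent kinases (chromosome 6, 36676460 to 36687337), went from 90.9 and 88.5 to 276 and 309 CPM (log2 1.71 ± 0.09, adjusted p = 7.2e-17). Control cells had 77.6 and 92.3 CPM of CDKN1A and cells given BMN alone 151 and 145 CPM. The DAC libraries were thus within the range of the control libraries for this gene, and the combination libraries were above every other WT library of day 0 or 5. MDM2, the ligase that degrades p53, rose 1.60-fold, from 90.3 and 105 to 160 and 152 CPM.

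The p53 targets that rose covered arrest, death and repair. PMAIP1 (NOXA), which opposes survival proteins of the BCL2 family, rose 2.51-fold from 20 and 22.7 to 55.9 and 51.3 CPM. The death receptor gene FAS went from 20.3 and 21.6 to 38.5 and 37.8 CPM, and TNFRSF10B, a receptor for TRAIL, rose 1.40-fold. The growth-arrest genes GADD45A and BTG2 rose 1.77- and 2.04-fold. Of the repair targets DDB2, which finds ultraviolet damage, rose 1.71-fold and RRM2B, a ribonucleotide reductase subunit, rose 1.56-fold, while XPC did not pass (log2 0.08, adjusted p = 0.67). Of 28 apoptosis regulators 10 rose and 2 fell. The shares over all genes tested were 6.77% and 5.52%, so the 2 falls were near the latter. Without combination replicate 1 or DAC replicate 1 the 10 became 6.

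**Figure D3:**
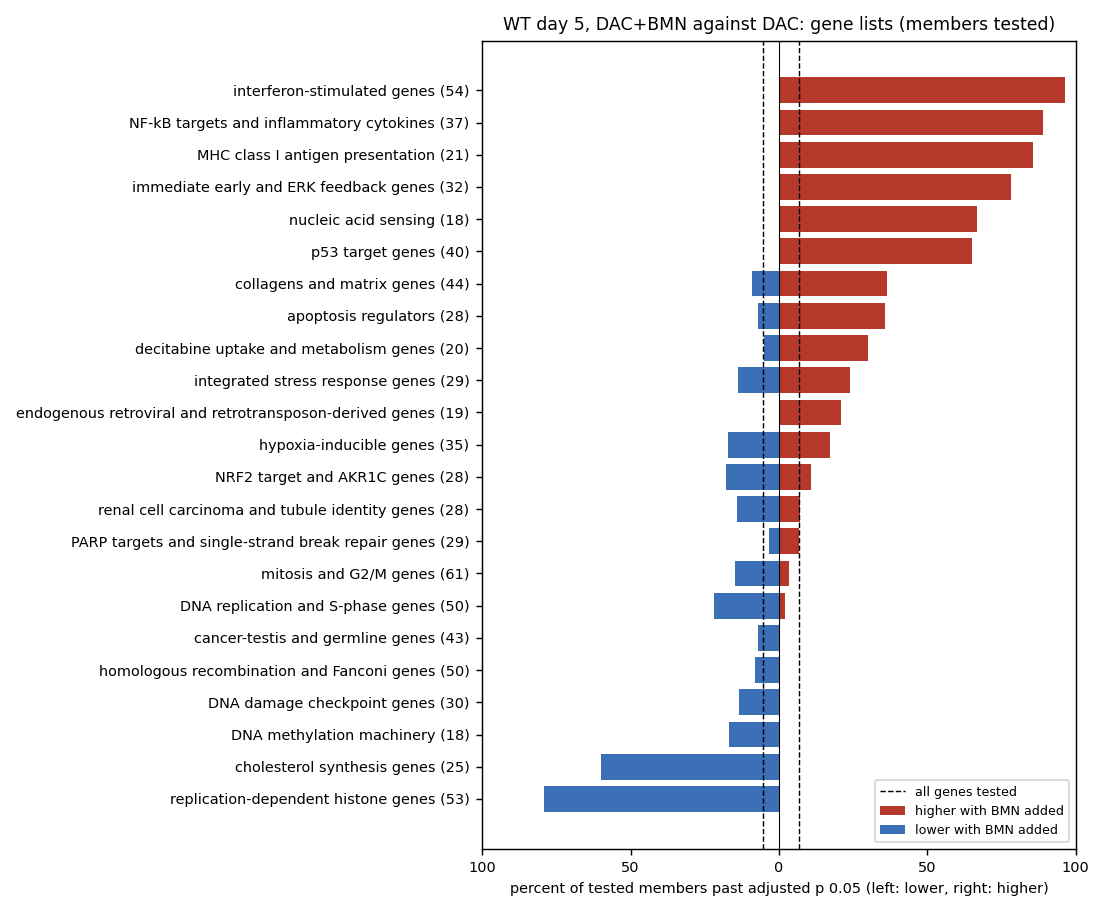
Percent of the tested members of 23 gene lists that passed at an adjusted p of 0.05, with members higher in the combination to the right and lower to the left; the number tested stands after each name and dashed lines mark all genes tested (6.77% higher, 5.52% lower). Interferon, NF-kB, antigen presentation, ERK feedback, sensing and p53 lists extend only to the right, and histone and cholesterol synthesis genes only to the left.

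Of the 10 largest falls, several were in genes that control cells hardly expressed. SMYD1, a histone methyltransferase of heart and skeletal muscle (ENSG00000115593, chromosome 2, 88067825 to 88113384), was at 14.5 and 14 CPM with DAC and at 1.99 and 1.49 CPM with the combination, an 8.20-fold difference (log2 -3.04 ± 0.23, adjusted p = 8.8e-12). Its mean in control cells was 0.0252 CPM. H19, the imprinted long noncoding RNA beside IGF2 (ENSG00000130600, chromosome 11, 1995176 to 2001470), was at 300 and 290 CPM with DAC and at 61.2 and 55.4 CPM with the combination (log2 -2.34 ± 0.09, adjusted p = 6.3e-19). Control cells had 6.85 and 8.7 CPM of H19, so both treated groups were above them. ALPG, a germ cell alkaline phosphatase with close relatives beside it whose reads it may share, was at 6.21 and 6.36 against 1.77 and 1.08 CPM. H1-6, the histone H1 of testis, was at 8.12 and 9.01 against 2.69 and 3.6 CPM. Control cells had 0.0504 and 0.311 CPM of ALPG and 0.101 and 0.207 CPM of H1-6. CNN1, the actin-binding calponin of smooth muscle, was at 64.9 and 54.2 against 22.3 and 21 CPM, with 10.6 and 10.7 CPM in control cells.

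Other falls included FGFR2 and IMPA2, which control cells expressed as well. Control levels of TMEM37, NAT8L and FTCD are not given here. FGFR2, a receptor for fibroblast growth factors (chromosome 10, 121478332 to 121598458), was at 94.3 and 95.9 CPM with DAC, was at 91.9 and 93.6 CPM in control cells, and fell to 35.9 and 29.9 CPM (log2 -1.53 ± 0.09, adjusted p = 3.7e-15). TMEM37, a membrane protein, was at 13.2 and 11 against 4.25 and 3.95 CPM. IMPA2, an inositol monophosphatase, was at 70.6 and 81.6 CPM in control cells and went from 25.9 and 26.8 CPM with DAC to 8.66 and 10.8 CPM. NAT8L, which makes N-acetylaspartate, fell 3.03-fold, and FTCD, an enzyme of histidine breakdown, fell 3.34-fold. In the test between lines described below, FTCD passed, with 0.714 and 0.8 against 1.27 and 1 CPM in KO (difference in log2 2.32, adjusted p = 0.0077), while SMYD1, H19, FGFR2, TMEM37, IMPA2 and NAT8L did not pass (adjusted p = 0.43 to 0.95).

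Cholesterol synthesis genes fell together, 15 of 25 with a median log2 of -0.41 and the other 10 not passing. INSIG1, the sterol-sensing anchor of SREBP (chromosome 7, 155297776 to 155310235), went from 384 and 401 to 198 and 203 CPM (log2 -0.97 ± 0.06, adjusted p = 2.3e-14). LSS, which closes the sterol ring, fell 1.54-fold, and HMGCS1, an early enzyme of the mevalonate route, fell 1.36-fold. The regulators SREBF1 and SREBF2 fell 1.59- and 1.33-fold. SCD, a desaturase of fatty acids that is driven by SREBF1 and was chosen after its values were seen, went from 1380 and 1360 to 543 and 522 CPM (log2 -1.36). Without combination replicate 2, 10 of the 25 fell.

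Replication-dependent histone genes were lower in 42 of 53 cases with a median log2 of -0.51, and the other 11 did not pass. These genes are made in S phase, mostly without a poly(A) tail, and many are near copies of each other, so the counts of single genes are uncertain. H1-3, a linker histone (chromosome 6, 26234212 to 26234987), went from 81.1 and 78.3 to 36.8 and 46.1 CPM (log2 -0.94 ± 0.08, adjusted p = 2.6e-11), and H1-5, another linker histone, fell 1.73-fold. H1-1 went from 30.9 and 29.1 to 13.2 and 13.4 CPM. For H1-3 and H1-1 each combination library was below each DAC library. With 1 library left out 32 to 42 passed, the fewest without combination replicate 1.

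Replication and mitosis genes moved less, with median log2 of -0.11 and -0.13. Over all genes tested 5.52% fell and 6.77% rose, and the rises in both lists were below that share. Of 50 replication and S-phase genes 11 fell and 1 rose, and only 4 fell without combination replicate 2 or without DAC replicate 1. MCM6, a subunit of the replicative helicase, fell 1.54-fold, from 151 and 148 to 100 and 93.6 CPM (adjusted p = 5.0e-10), and its partners MCM5 and MCM2 fell 1.27- and 1.23-fold. Of 61 mitosis and G2/M genes 9 fell and 2 rose, and the 9 became 3 without DAC replicate 1, 2 without DAC replicate 2 and 7 without combination replicate 1. All 9 calls were lost without combination replicate 2. CENPF, a kinetochore protein, was at 489 and 530 against 388 and 371 CPM, and its call was lost without combination replicate 2 (log2 -0.40) or DAC replicate 2 (log2 -0.37).

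Transcripts of the enzymes that the drugs bind did not pass. PARP1 was at 300 and 280 against 278 and 252 CPM (log2 -0.13 ± 0.07, adjusted p = 0.26), PARP2 at a log2 of -0.21 ± 0.11 (adjusted p = 0.26) and PARG, which removes ADP-ribose chains, at -0.06 ± 0.08 (adjusted p = 0.69). PARP3, a smaller PARP of break repair, was at 33.6 and 29.4 against 39.3 and 39.4 CPM (log2 0.32 ± 0.10, adjusted p = 0.023), a call lost without either combination library or without DAC replicate 2 (log2 0.23 to 0.33). LIG3, the ligase of single-strand break repair, fell 1.30-fold (adjusted p = 0.00012). SLFN11, a helicase-like protein known to sensitise cells to PARP inhibitors, was at 124 and 130 against 145 and 133 CPM (log2 0.13 ± 0.06, adjusted p = 0.22).

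DNMT1, the methyltransferase that copies methylation, was at 331 and 316 against 309 and 297 CPM (log2 -0.10 ± 0.07, adjusted p = 0.41), and DNMT3B, which also sets new methylation, was at a log2 of -0.22 ± 0.09 (adjusted p = 0.14). UHRF1, which brings DNMT1 to copied DNA, fell 1.33-fold, from 180 and 170 to 142 and 122 CPM (log2 -0.41 ± 0.08, adjusted p = 0.00028). Of 50 homologous recombination and Fanconi genes 4 fell, and between 1 and 2 did so with 1 library left out. Over all genes tested 5.52% fell, so the count of this list was near that share. BRCA1, central to repair by homologous recombination, did not pass (log2 -0.11, adjusted p = 0.48). SETD2, which methylates lysine 36 of histone H3, was at 128 and 135 against 117 and 114 CPM (log2 -0.19 ± 0.07, adjusted p = 0.082).

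Cancer-testis and germline genes, which DAC is known to switch on, were compared next. Of 43 tested 3 fell and 40 did not pass, with a median log2 of -0.16. The falls were near the share over all genes tested, 5.52%. TKTL1, a transketolase-like gene (chromosome X, 154295795 to 154330350), was at 30.9 and 32.9 CPM with DAC against 19.6 and 21.2 CPM (log2 -0.65 ± 0.19, adjusted p = 0.021), with a mean of 0.0518 CPM in control cells. PNMA5 and MAGEC2 were the other two, at log2 of -0.43 each. Their reads may be shared with relatives, and all 3 calls were lost without combination replicate 2 (log2 -0.22 for MAGEC2) or without DAC replicate 2. Of 19 retroviral and retrotransposon-derived genes 4 rose, and 1 or 2 did so with 1 library left out. Over all genes tested 6.77% rose. Reads from repeat copies outside annotated genes are not in the gene counts.

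Matrix genes were mixed, with 16 of 44 higher and 4 lower and a median log2 of 0.21, and the 4 became 1 without DAC replicate 1 and 2 without any of the other libraries. Over all genes tested 6.77% rose and 5.52% fell, so the 4 lower were not far from that share. The same shares apply to the stress and hypoxia lists below. FN1, which encodes fibronectin (chromosome 2, 215360440 to 215436073), went from 1610 and 1480 to 4110 and 3930 CPM (log2 1.38 ± 0.06, adjusted p = 5.3e-19). Control cells had 3010 and 2940 CPM of FN1, so DAC alone was below and the combination above them. FBN1, a fibril protein, rose 3.11-fold, COL6A3 1.96-fold and THBS1, an inhibitor of vessel growth, 1.73-fold, whereas COL5A1 fell 1.35-fold. In the integrated stress response 7 of 29 genes rose and 4 fell, and the median log2 was 0.00. The 7 became 4 without combination replicate 1 or DAC replicate 2. ATF3, a stress-induced factor that is also an immediate early gene, rose 2.54-fold, and DDIT4, an inhibitor of mTORC1, fell 1.48-fold. Of 35 hypoxia-inducible genes 6 rose and 6 fell (3 fell without combination replicate 2 or DAC replicate 2), including a 2.87-fold rise of ANGPTL4, a lipase inhibitor, and a 1.49-fold fall of NDRG1, a stress-response gene.

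The same addition of BMN was measured in KO cells at day 5, in WT cells at day 16, and, without DAC, in WT cells at day 5. None of these comparisons shares a library with the one above. In KO at day 5, 5030 genes changed (22.3%; 10.5% higher and 11.8% lower), and 1420 of them changed in the same direction as in WT, which is 51.3% of the WT genes and 28.2% of the KO genes. The 5030 became 3217, 3235 and 3002 without KO combination replicate 1, KO combination replicate 2 and KO DAC replicate 1. In WT at day 16, 2759 genes changed (12.2%; 5.04% higher and 7.21% lower), of which 1082 changed in the same direction as at day 5 (39.1% and 39.2%), and the 2759 became 1809 without combination replicate 2 and 1813 without DAC replicate 1 of that day. BMN alone at day 5 changed 42 genes (0.186%; 0.146% higher) against control cells of day 0. That comparison carries 5 days in culture along with the drug, and 38 of the 42 (90.5%) also changed in the same direction when BMN was added to DAC, which is 1.37% of the genes changed there. The 42 became 44 and 79 without control replicates 1 and 2, of which 28 (63.6%) and 51 (64.6%) changed in the same direction on DAC, and 15 and 16 without BMN replicates 1 and 2.

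**Figure D4:**
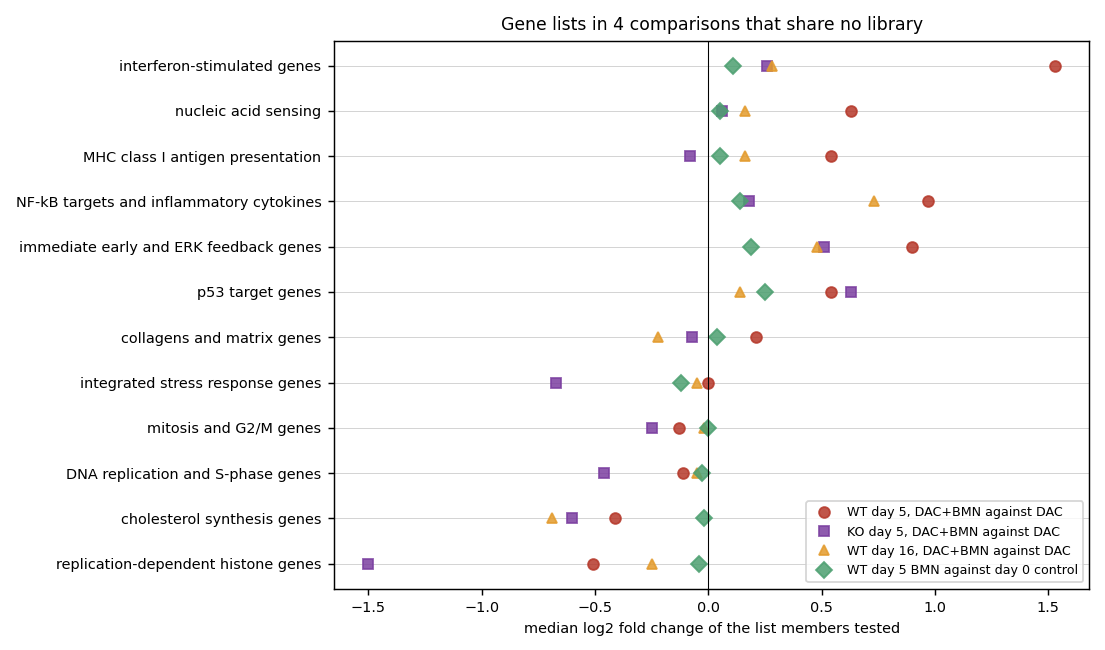
Median log2 fold change of the tested members of 12 gene lists (horizontal axis) in 4 comparisons that share no library. The interferon list stands at 1.53 in WT at day 5 and between 0.11 and 0.28 in the others, while the p53 list stands highest in KO at day 5 and the histone list lowest there, at -1.50.

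Interferon-stimulated genes rose less in KO at day 5. The test of the difference between lines called 1543 genes in all (6.85%). In KO 27 of 54 rose and 2 fell, with a median log2 of 0.26, and by the test of the difference between lines 45 of the 54 rose less in KO than in WT (42 to 44 with 1 library left out), against 4.68% of all genes tested. OAS2 was at 7.36 and 7.68 CPM with DAC and 14.7 and 14.3 CPM with the combination in KO (difference in log2 -2.38, adjusted p = 3.5e-13). MX1 was at 24.6 and 20.1 against 27 and 26.5 CPM in KO (difference -2.50, adjusted p = 8.9e-15). CMPK2 differed most by the naming rule, with 1.32 and 1.01 against 0.995 and 0.502 CPM in KO (difference -3.43, adjusted p = 2.2e-08), and IFITM1 was at 1.92 and 1.92 against 0.995 and 0.893 CPM (difference -2.89, adjusted p = 1.4e-07). For CMPK2 and IFITM1 the KO combination libraries were below the KO DAC libraries, and for OAS2 and MX1 above them. Of 21 antigen presentation genes none rose in KO and 5 fell (1 without KO DAC replicate 1), with a median log2 of -0.08, and the change of 15 was lower in KO than in WT by the test of the difference. Of 37 NF-kB targets and cytokines 15 rose and 10 fell in KO (5 fell without KO DAC replicate 1), and by that test the change of 25 was lower and of 1 higher in KO (19 to 23 lower with 1 library left out).

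The p53 targets rose in KO as well, and histone genes fell further there. In KO 29 of 40 p53 targets rose, with a median log2 of 0.63, and the test of the difference called the change of 7 higher in KO, against 2.17% of all genes tested, and of 3 lower. The 7 became 4 without KO DAC replicate 1. GDF15 went from 14.4 and 12.5 to 176 and 173 CPM in KO (difference 0.82, adjusted p = 0.0073), and CDKN1A from 138 and 126 to 428 and 462 CPM (difference 0.04, adjusted p = 0.89). Of the 53 histone genes 52 fell in KO, and 47 fell more than in WT (41 to 46 with 1 library left out), with a median log2 of -1.50 in KO. Of 50 replication genes 22 also fell more in KO (11 to 22 with 1 library left out, fewest without WT combination replicate 1). LINC02532, a long noncoding RNA (chromosome 6, 106705334 to 106788148), fell in WT from 6.93 and 6.96 to 2.96 and 2.77 CPM. In KO it was at 0.385 and 0.267 against 1.05 and 0.558 CPM, and the difference of 2.57 passed (adjusted p = 0.0017). These KO levels were low, so the size of the difference rests on few counts.

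**Figure D5:**
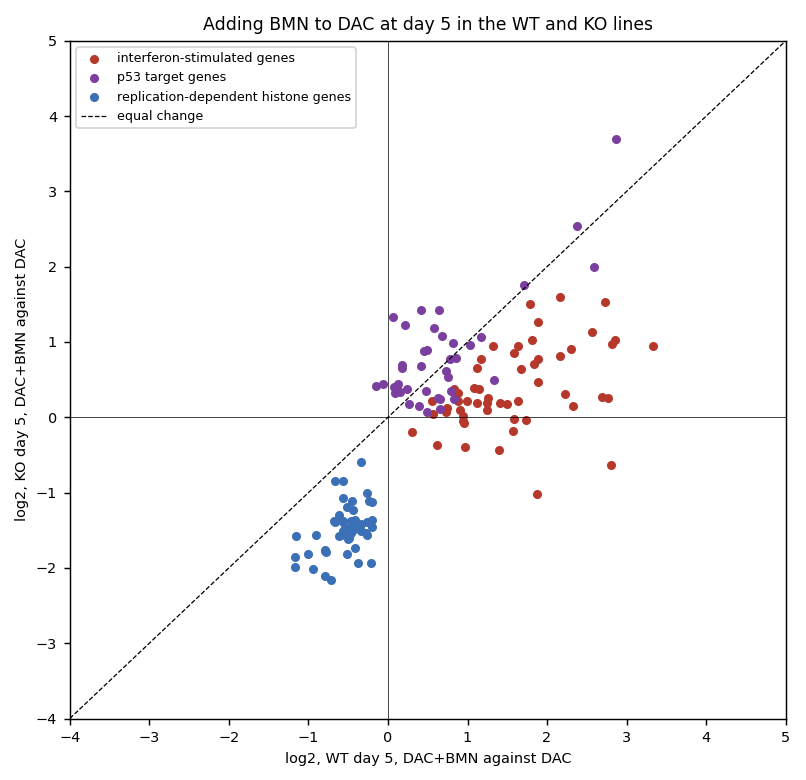
Log2 fold change on adding BMN to DAC at day 5 in KO (vertical axis) against WT (horizontal axis), 1 point a gene, for 3 gene lists; the dashed line marks equal change. Interferon-stimulated genes lie below the line, with CMPK2 at 2.80 in WT and -0.63 in KO, p53 targets lie around it, and histone genes lie below it.

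At day 16 leading interferon-stimulated genes of WT cells were high with DAC alone. OAS2 was at 284 and 269 CPM with DAC and 366 and 360 CPM with the combination, against 11.6 and 10.8 and 111 and 113 CPM at day 5. MX1 was at 249 and 247 against 311 and 309 CPM, and IFI27 was at 534 and 532 against 542 and 549 CPM. For these 3 genes day 16 levels were above those of day 5 in both groups, and the ratio between the groups was smaller. The test between days called 1142 genes in all (5.07%). Of the 54 interferon-stimulated genes 51 rose less on adding BMN at day 16 than at day 5, against 4.11% of all genes tested. At day 16 itself 27 passed as higher and 1 as lower, and the 27 became 17 to 19 with 1 of the 4 day 16 libraries left out, fewest without DAC replicate 1.

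At day 16, 24 of 37 NF-kB targets and cytokines rose and 1 fell, with a median log2 of 0.73, and 22 of the 24 were among the 33 that rose at day 5. The test between days called the change of 10 lower at day 16, against 4.11% of all genes tested, and of 2 higher. IL6 was at 43.7 and 41.1 against 327 and 327 CPM (difference between days 0.19, adjusted p = 0.58), and CSF2 at 3.56 and 2.42 against 26.5 and 25.4 CPM (difference -0.46, adjusted p = 0.59). A difference that did not pass does not show equal changes. CDKN1A, in contrast, was at 101 and 98.6 against 112 and 109 CPM at day 16 (difference -1.56, adjusted p = 1.9e-11), and the change of 15 of 40 p53 targets was lower than at day 5. At day 16 itself 8 of the 40 rose and 5 fell, with a median log2 of 0.14.

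The largest differences between days by the naming rule were in CLDN2, CNN1 and PIGR. CLDN2, a tight junction protein of the proximal tubule (chromosome X, 106900164 to 106930861), rose at day 5 from 2.95 and 3.06 to 6.51 and 5.5 CPM. At day 16 it was at 2.22 and 2.18 against 0.470 and 0.151 CPM, so that its direction turned (difference -3.81, adjusted p = 1.9e-08). CNN1 fell at both days, and at day 16 from 15.9 and 14.8 to 0.418 and 0.401 CPM (difference -3.75, adjusted p = 1.6e-09). PIGR, the receptor that carries immunoglobulin across epithelium, was at 0.517 and 0.371 against 1.40 and 1.80 CPM at day 5 and at 7.96 and 6.59 against 2.09 and 2.56 CPM at day 16 (difference -3.49, adjusted p = 8.1e-06). The day 5 call of PIGR was lost without DAC replicate 2 (log2 1.62).

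Without DAC, BMN raised 4 of the 54 interferon-stimulated genes at day 5, IFI44, IFIT2, IFIT3 and TRIM22, by log2 of 0.66, 0.53, 0.52 and 0.42, and the list's median log2 was 0.11. All 4 calls were lost without BMN replicate 1. The list's count was 3 and 4 without control replicates 1 and 2, and of the 4 genes IFIT3 alone passed in both fits (log2 0.62 and 0.44), while IFI44 passed in neither. The direct test against BMN alone called 618 genes (2.74%), and 1033 and 563 without control replicates 1 and 2. It found that 44 of the 54 rose more when BMN was added to DAC than when it was given alone, against 1.84% of all genes tested, and 43 and 40 did so without control replicates 1 and 2. MX2 was at 0.806 and 0.570 CPM in control cells and 0.685 and 0.318 CPM with BMN (difference 3.18, adjusted p = 2.6e-08). CMPK2 (difference 3.08, adjusted p = 0.00039) and MX1 (difference 2.86, adjusted p = 3.9e-11) followed. Without control replicates 1 and 2 these differences were 2.91 and 3.40 for MX2, 3.29 and 2.84 for CMPK2 and 2.93 and 2.77 for MX1, and all passed. For OAS2 the difference of 1.37 did not pass (adjusted p = 0.58; 1.95 and 0.43 without control replicates 1 and 2, adjusted p = 0.33 and 0.99), and 1 of its 2 control libraries lay below the level of 3 counts.

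Of the p53 targets CDKN1A, PLK2 and EDA2R rose with BMN alone, by log2 of 0.80, 0.24 and 0.49, and 1 and 6 of the 40 did so without control replicates 1 and 2. CDKN1A passed in both of those fits (log2 0.68 and 0.93), EDA2R without replicate 2 (log2 0.60) and PLK2 in neither. CDKN1A was at 77.6 and 92.3 CPM in control cells and 151 and 145 CPM with BMN, and its rise on DAC was larger (difference 0.90, adjusted p = 3.5e-06; 1.02 and 0.77 without control replicates 1 and 2, both past the threshold). The direct test called 7 of 40 p53 targets as rising more on DAC, 12 and 5 without control replicates 1 and 2, and 4 without combination replicate 1. IL6 rose with BMN alone from 1.51 and 0.880 to 4.9 and 3 CPM (log2 1.70, adjusted p = 0.00013), and more on DAC (difference 1.06, adjusted p = 0.028). Its rise with BMN alone passed without either control library (log2 2.14 and 1.36), but the difference lost its call without control replicate 1 (0.62, adjusted p = 0.43) and was 1.39 without control replicate 2 (adjusted p = 0.012). Of 53 histone genes 25 fell more on DAC, and this count ranged from 6, without combination replicate 1, to 30, with 21 and 25 without control replicates 1 and 2. SAMHD1 had a log2 of 0.00 with BMN alone and of 1.28 on DAC (difference 1.28, adjusted p = 5.8e-11; 1.15 and 1.41 without control replicates 1 and 2, both past the threshold), with means of 58.2 CPM in control cells and 58.3 CPM with BMN.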

How the data were processed

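Total RNA of 786-0 cells was sequenced from libraries made with the KAPA RNA HyperPrep kit, per the labels' protocols. The authors deposited raw counts of fragments per gene, not normalized, from featureCounts 1.5.0-p1 with Ensembl 104 on GRCh38, strand setting 1, mapping quality of at least 20, primary alignments, duplicates ignored, per the file headers. FastQC, Trimmomatic and Partek are named in the submitters' processing notes. The headers name 76 alignments, and 40 were used here. All 37 mitochondrial genes have a count of 0.

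Genes were kept by filterByExpr over 20 groups (minimum count 10, minimum total 15), scaled by TMM and fitted with all 40 libraries in edgeR 4.0.16 (R 4.3.3) by its quasi-likelihood test, with Benjamini-Hochberg adjustment over 22527 genes. On simulated counts over 22527 genes, 67, 67 and 66 genes were changed 1.5-, 2- and 4-fold and 22327 were left unchanged. The changed genes all averaged at least 1 CPM. The fit recovered 58.2%, 85.1% and 95.5% of them, with 7 false calls. Far fewer genes were changed there than passed in the data, and low genes were left out, so these rates may not hold for the comparison itself. Differences between comparisons were contrasts of the same fit. DESeq2 1.42.0 was an alternative. The SE was derived from the test, as the absolute log2 fold change over the square root of its F statistic. It thus uses a spread estimated over all 40 libraries. Counting error and library spread are both in the SE.

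The comparison and the 24 gene lists were chosen with earlier results of these data known. Genes were named by a rule: the 10 largest rises and falls past the threshold with 5 CPM or more on average where higher, 3 counts or more in each library and no overlap of the groups, up to 4 members of each list by adjusted p, 21 drug-related genes, and the 3 largest in each test of a difference. Other genes named are list members chosen after their values were seen. The suffix of column names and the interferon ligands were also looked at after the values were seen. Some genes of the lists and of the naming rule are not reported here.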

Additional observations from a re-analysis of the deposited data

Results flagged for a closer look

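Tests of the difference between effects singled out the following results. Between KO and WT at day 5, 1543 genes differed in the effect of adding BMN to DAC. CMPK2 was at a log2 difference of -3.43, IFITM1 at -2.89 and LINC02532 at 2.57 (KO minus WT). LINC02532 was low in KO, so the size of its difference rests on few counts. Between day 16 and day 5 in WT, 1142 genes differed, with CLDN2 at -3.81, CNN1 at -3.75 and PIGR at -3.49 (day 16 minus day 5). Between adding BMN to DAC and giving BMN alone in WT at day 5, 618 genes differed, with MX2 at 3.18, CMPK2 at 3.08 and MX1 at 2.86 (on DAC minus alone). The last count was 1033 and 563 without control WT replicates 1 and 2. BMN alone was compared with control cells of day 0, so that time and drug cannot be told apart there.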

How the results depend on the processing

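Of 108 named genes that passed, none changed direction under the alternatives run, 82 passed under every alternative and 26 lost the call in at least 1. These 108 are genes picked by the naming rule. The other genes named above were not followed singly under the alternatives for this comparison. DCK, which did not pass, ran from log2 -0.29 to 0.14. SETD2 passed with library totals only (log2 -0.22). The count for WT day 5 was 2714 with the size factors of DESeq2, 2963 with library totals (1449 higher, 1514 lower, so the balance turned), 2601 without a filter, 2939 with a filter at 1 CPM, 3428 in a fit of the 4 libraries and 2725 with DESeq2. With only the 20 WT libraries 777 genes were lower. With the replicate number as a block it was 2813 over all 40 libraries and 3989 in the 4 alone. The pairs share only a number: the deviations of same-numbered DAC and combination libraries of WT day 5 had r = 0.0938 over 11864 genes, and over the 190 pairs of the 20 groups r ran from -0.59 to 0.704, with 40 above 0.1. With the block and only the libraries compared, WT day 16 gave 5054, BMN alone 6, the difference between lines 3213, between days 2627 and between BMN on DAC and alone 142. With only the libraries compared and no block, BMN alone gave 0 by edgeR (656 genes at an unadjusted p under 0.05; DESeq2 over all libraries gave 71), the lines 2347, the days 1810 and the drugs 207. With only the 20 WT libraries these were 9 for BMN alone, 687 for the days and 340 for the drugs, and BMN alone gave 64 without a filter. With 1 library left out, counts ran from 1574 to 1968 for WT day 5 (897 to 1175 higher, 568 to 828 lower), 3002 to 4022 for KO day 5, 1809 to 1933 for WT day 16, 15 to 79 for BMN alone, 808 to 1610 between lines, 696 to 912 between days and 378 to 1033 between drugs. A lone library is then assumed to vary like the other groups. The cause of these shifts was not tested. With 2 libraries a group, small changes can be missed: in the simulated counts 58.2% of those of 1.5-fold were recovered.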
